A study of Homo sapiens with 4 samples.

Results

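The clustered histone genes are the 71 protein-coding genes, of 58735 gene rows in all, whose names begin with HIST1H, HIST2H, HIST3H or HIST4H. They were chosen by name and biotype alone, and 19 rows with such names but a non-coding biotype were left out. They comprise 6 genes of histone H1, 17 of H2A, 18 of H2B, 15 of H3 and 15 of H4. The HIST1 cluster on chromosome 6 holds 55 of them, the HIST2 cluster on chromosome 1 holds 12, the HIST3 cluster on chromosome 1 holds 3, and HIST4H4 lies alone on chromosome 12. RNA-seq counts were analysed for 4 libraries of MKN-45, an established human gastric cancer cell line. All cells carried a lentivirus and had been selected with puromycin for stable infection. The virus was meant to overexpress the homeobox transcription factor SIX2 in 2 libraries and was a control virus in 2 libraries, and each pair is numbered 1 and 2 in the sample titles. What the number stands for is not labelled, and the labels name neither the promoter of the virus nor whether a library came from 1 clone.

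Core histones H2A, H2B, H3 and H4 form the protein spool of the nucleosome, and linker histone H1 binds where the DNA enters and leaves it. The clustered genes are mostly replication-dependent copies, which cells transcribe mainly during S phase, when new DNA must be packaged. Their mRNAs are known for ending in a conserved stem-loop, bound by the protein SLBP, instead of a poly(A) tail, although some of them are also made as polyadenylated transcripts. The labels name total RNA and an Illumina TruSeq RNA kit, which in its usual form selects polyadenylated RNA, but they do not state a selection step. Levels of these genes therefore depend on the library preparation as well as on the cells. In bulk RNA, fewer cells in S phase and less histone RNA per cell cannot be told apart.

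The libraries held 14792869 to 16777792 counts, with 24396 to 25472 genes detected and 6.19% to 7.03% of counts from mitochondrial genes. The check of the targeted gene did not bear out the label: SIX2 had 605 and 379 counts in SIX2 replicates 2 and 1 and 597 and 369 counts in control replicates 2 and 1 (log2 change 0.02, SE 0.37, adjusted p = 1.00, edgeR's quasi-likelihood test with Benjamini-Hochberg adjustment). Groups are called by their labels throughout, and a SIX2 replicate is a library labelled SIX2 overexpression. Across all tested genes, log2 levels correlated at 0.990 and 0.994 between the 2 libraries of number 2 and of number 1, against 0.937 and 0.936 between the 2 libraries of the SIX2 label and of the control label (across genes, which are not independent replicates). Of 12 gastric epithelial markers 9 passed the filter on low counts, and the 12 summed to 5381 and 4112 CPM in SIX2 and control replicates 2 and to 2752 and 2802 CPM in SIX2 and control replicates 1, mostly from the keratins KRT8 and KRT18. These 2 genes were higher in number 2, and 3 epithelial markers were lower, namely the cadherins CDH1 and CDH17 and the trefoil factor TFF1, with log2 changes of -1.67, -6.96 and -2.46 (adjusted p of 2.06e-05, 2.10e-06 and 0.00276, edgeR's quasi-likelihood test). CDH17 had 1 and 0 counts in SIX2 and control replicates 2, against 81 and 70 counts in SIX2 and control replicates 1, so its change depends on the prior count. The median log2 change of the 9 was -0.35. KRT19, TFF2 and GKN1 did not pass the filter, at means of 0.079, 0.16 and 0.55 CPM over the 4 libraries. MUC1 averaged 222 CPM and EPCAM 10.8 CPM. Of 9 markers of other cell types, the leukocyte genes PTPRC and CD3E had 0 counts in all libraries. The 9 summed to 283 and 292 CPM in SIX2 and control replicates 2 and to 61.7 and 59.6 CPM in SIX2 and control replicates 1, nearly all of it the collagen gene COL1A1. Both sums and the 3 lower markers move with the number, and their part in the histone differences described below was not tested.

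The stem-loop that stands at the end of a replication-dependent histone mRNA was searched in the GENCODE 29 transcript models with a set pattern. The pattern was a stem of 6 bases on either side of a loop of 4. It fixed some bases and let others vary, which limits the forms that can be found, and pairing was not checked. A match was found after the stop codon of 32 of the 71 genes, in 6 forms. They are written here as DNA with the loop in capitals and shown because they carry the group's shared 3′ end. The model of 35 others stops at the stop codon, and the lack of a match there says nothing of their true ends. The remaining genes have a 3′ untranslated region in the model and no match.
Most common form, in 17 genes including HIST1H2AC, HIST2H2BE and HIST1H2BH: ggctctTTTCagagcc
Form of HIST1H4H, HIST4H4 and 3 other H4 genes: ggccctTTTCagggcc
Form of HIST1H2BC, HIST1H2BD, HIST1H3G and 2 other genes: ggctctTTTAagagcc
Form of HIST1H4I, HIST2H4A and HIST2H4B: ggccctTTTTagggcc
Form of HIST1H3E: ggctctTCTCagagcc
Form of HIST1H2AG: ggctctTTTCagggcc
Counted from 1 at the 5′ end, with the most common form's base first, the H4 form differs by T4C and A13G, a pair that lies on both sides of the stem. The form of HIST1H4I adds C10T to these. The form of HIST1H2BC differs by C10A, that of HIST1H3E by T8C and that of HIST1H2AG by A13G alone. The H4 forms with T4C and A13G were found in no gene of another type.

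Promoter sequences from RefSeq (GRCh38.p14, 250 bases before to 50 after the start) matched 66 of the 71 genes. On either strand, CCAAT stood in 56 of the 66 (84.8%), against 34.61% of all 35116 promoters in the table. It was present in every matched H1, H2A, H2B and H3 promoter and in 3 of 13 H4 promoters. TATAAA stood in 68.2%, against 11.53% of all promoters. The octamer ATTTGCAT stood in 11 of 16 H2A and 14 of 18 H2B promoters and in 0 of the H1, H3 and H4 promoters, against 1.77% of all promoters. Windows of neighbouring genes transcribed away from each other can overlap, as do those of HIST1H2AC and HIST1H2BC. The same site is then counted for both genes, so the counts of H2A and H2B promoters are not independent. Such matches describe the letters of the window and show no binding. The 250 bases before the start are printed for 4 of the most abundant of these genes, with these 3 motifs on either strand in capitals and adjoining or overlapping matches run together.
HIST1H1C, chr6:26056471-26056720, minus strand: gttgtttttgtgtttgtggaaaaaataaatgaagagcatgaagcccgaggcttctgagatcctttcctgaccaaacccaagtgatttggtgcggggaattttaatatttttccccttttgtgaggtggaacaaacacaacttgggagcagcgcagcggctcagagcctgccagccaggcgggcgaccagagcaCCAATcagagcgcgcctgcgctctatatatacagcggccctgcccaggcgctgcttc
HIST1H2AC, chr6:26123922-26124171, plus strand: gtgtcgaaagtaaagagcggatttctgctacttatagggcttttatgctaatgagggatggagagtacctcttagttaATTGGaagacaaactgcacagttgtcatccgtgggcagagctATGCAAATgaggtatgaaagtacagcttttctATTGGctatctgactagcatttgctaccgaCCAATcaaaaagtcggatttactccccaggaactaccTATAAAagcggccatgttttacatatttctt
HIST1H2BK, chr6:27146859-27147108, minus strand: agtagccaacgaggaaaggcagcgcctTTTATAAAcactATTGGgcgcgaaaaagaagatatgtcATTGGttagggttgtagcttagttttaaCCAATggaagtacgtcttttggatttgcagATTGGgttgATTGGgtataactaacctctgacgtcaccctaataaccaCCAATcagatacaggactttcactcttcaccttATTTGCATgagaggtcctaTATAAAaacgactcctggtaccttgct
HIST2H2BE, chr1:149886683-149886932, minus strand: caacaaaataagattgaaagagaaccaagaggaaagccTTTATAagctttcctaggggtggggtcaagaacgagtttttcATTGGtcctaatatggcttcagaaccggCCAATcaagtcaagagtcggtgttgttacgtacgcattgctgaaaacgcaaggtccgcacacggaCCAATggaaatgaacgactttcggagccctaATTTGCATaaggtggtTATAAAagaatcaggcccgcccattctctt
The HIST1H2AC window covers the stretch between the starts of HIST1H2AC and HIST1H2BC, which are transcribed away from each other. The HIST1H1C window holds 1 CCAAT and neither of the other motifs, whereas the HIST1H2BK window holds 6 matches of CCAAT.

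Few of the 71 genes were measured with any depth. Together they had 21871 counts over the 4 libraries, between 0.0250% and 0.0441% of a library. In 29 genes the counts passed the filter on low counts and were tested: 1 of H1, 5 of H2A, 13 of H2B, 4 of H3 and 6 of H4. The other 42 shared 378 counts. Of these, 11 had 0 counts in every library, among them HIST1H1A, HIST1H4A and HIST1H4L, and 9 had 1 to 3 counts in all. The mean level was under 1 CPM (counts per 1000000 of the TMM-scaled library size) in 44 genes. Differences of the 42 genes that did not pass the filter were not tested in the main fits, and at such counts most could hardly be detected. Sequence shared between genes, whose reads cannot be placed on 1 gene with certainty, was also found. In 15 of the 71, more than 80% of the 50-base windows occur in other genes. Of these 15, 4 had 0 counts and 2 were tested. HIST1H3D, HIST1H2AK and HIST2H3PS2 share all their windows and HIST1H2AD 98.0%, and each had 0 counts. HIST1H4K also shares all its windows but had 47 counts and was tested, so its values are uncertain. Of 30 genes with no shared window 7 had 0 counts and 9 were tested. Counts of genes given below cover the 29 that were tested, 27 of which had at least 10 counts in all 4 libraries.

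**Figure D1:**
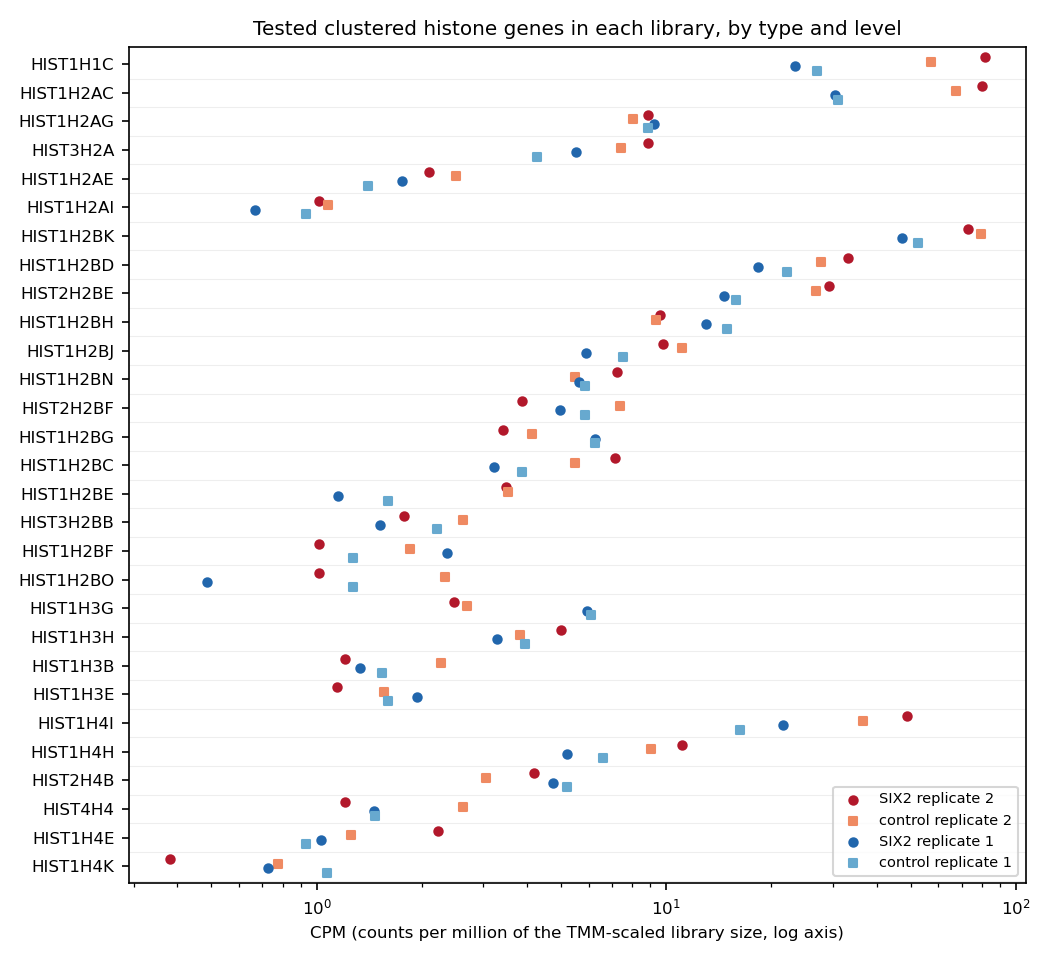
Each row is 1 of the 29 tested clustered histone genes, grouped by type (H1, H2A, H2B, H3, H4 from top to bottom) and ordered by mean level; each point is 1 library, in CPM on a log axis not divided by gene length, with SIX2 replicates as circles, control replicates as squares, number 2 in red shades and number 1 in blue shades. In the upper row of each of the H1, H2A, H2B and H4 blocks (HIST1H1C, HIST1H2AC, HIST1H2BK, HIST1H4I) both red points lie right of both blue points, and in the upper H3 row (HIST1H3G) they lie left.

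A few genes carried most of the signal. The 6 with the most counts were HIST1H2BK, HIST1H2AC, HIST1H1C, HIST1H4I, HIST1H2BD and HIST2H2BE, and they held 70.5% of the counts of all 71. H2B genes held 46.8% of the counts, H2A genes 21.1%, H1 genes 14.2%, H4 genes 14.1% and H3 genes 3.81%. Per kilobase of the gene's model, mean levels were 166 CPM per kilobase for HIST1H2BK, 73.7 for HIST1H1C, 31.3 for HIST1H2AC, 29.1 for HIST1H2BD, 23.8 for HIST1H4I and 9.87 for HIST2H2BE. The models of HIST1H2BK and HIST1H1C hold only coding sequence, so that these 2 values are per kilobase of coding length and the others are not. HIST1H2BK also shares 74.1% of its 50-base windows with other genes, of which H2BFS shares the most. Reads in these windows cannot be placed on 1 gene with certainty. Per kilobase HIST1H1C stood above HIST1H2AC and HIST1H2BD above HIST1H4I, the reverse of their order by counts.

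The summed level of the 71 genes was higher in number 2 than in number 1 and showed no clear difference between the virus labels. It was 449 CPM in SIX2 replicate 2 and 400.3 CPM in control replicate 2, against 249 CPM in SIX2 replicate 1 and 267 CPM in control replicate 1. Both libraries numbered 2 lay above both numbered 1, at 425 ± 34.5 CPM and 258 ± 12.7 CPM (SD, n = 2 each), a fold of 1.65. Between labels the sums overlapped, at 349 ± 142 CPM for the SIX2 label and 334 ± 94.5 CPM for the control label (SD, n = 2 each). Within number 2 the SIX2 library was 1.12 times its control, and within number 1 it was 0.933 times its control, with 1 library on each side. The difference between the sums lay mostly in the most abundant genes: the 6 with the most counts summed 2.0-fold higher in number 2, and the other 65 1.07-fold. Single genes among the other 65 changed in both directions. Of their 23 tested genes, 5 were higher and 3 lower at an adjusted p under 0.05 by edgeR's quasi-likelihood test. Of all tested genes 22.2% were higher and 21.6% lower. The 6 were picked by their counts in all 4 libraries. Over all tested genes the median log2 change between numbers was 0.0061.

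**Figure D2:**
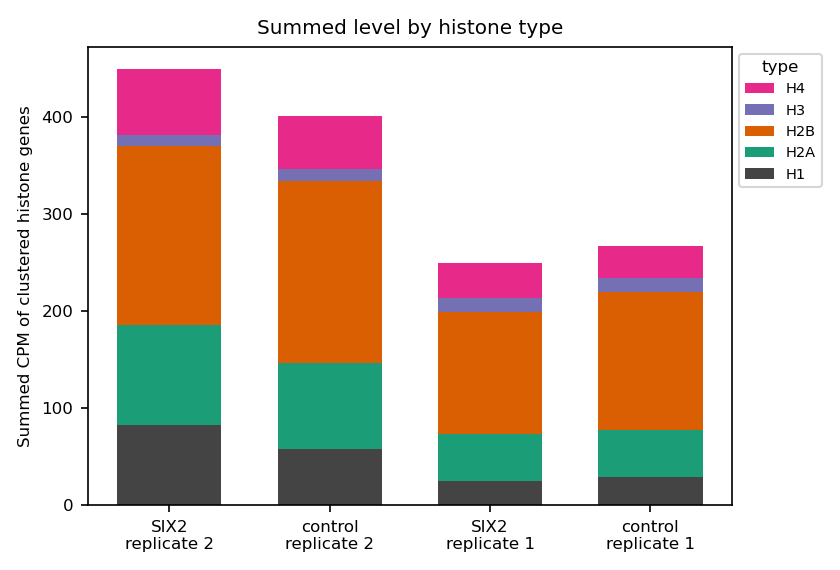
Each bar is 1 library, ordered SIX2 and control replicates 2 and then SIX2 and control replicates 1; its height is the summed CPM of the 71 clustered histone genes, stacked by histone type. The bars reach 449, 400.3, 249 and 267 CPM, and the H1 and H2A segments account for a larger share of the 2 taller bars.

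Types differed in how their sums moved with the number. H1 genes summed to 82.3 and 58.1 CPM in SIX2 and control replicates 2, against 24.5 and 28.6 CPM in SIX2 and control replicates 1, a fold of 2.64 between numbers. H2A genes summed to 103 and 87.8 CPM in number 2, against 49.0 and 48.5 CPM in number 1, a fold of 1.95. H2B genes had 184 and 188 CPM in number 2, against 125 and 142 CPM in number 1, a fold of 1.39. In these types and in H4, at 68.5 and 54.7 CPM in number 2 and 35.9 and 32.6 CPM in number 1 (fold 1.80), the numbers did not overlap. H3 genes alone had the opposite order, with 11.3 and 11.9 CPM in number 2 and 14.0 and 15.1 CPM in number 1 (fold 0.796). The composition therefore differed: H1 genes gave 18.3% and 14.5% of the clustered histone counts in SIX2 and control replicates 2, and 9.86% and 10.7% in SIX2 and control replicates 1. No test was run on these sums.

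Gene by gene, 14 of the 29 tested genes passed the threshold between libraries numbered 2 and 1 (48.3%), close to the 43.8% of all 16343 tested genes. Their direction was uneven: 11 were higher in number 2 (37.9%, against 22.2% of all tested genes) and 3 were lower (10.3%, against 21.6%). A change of at least 2-fold was called in 5 of them (17.2%, against 16.3%). The median log2 change of the 29 was 0.40. Without regard to the test, both libraries of number 2 lay above both of number 1 in 14 genes (48.3%, against 36.1% of all tested genes) and below in 6 (20.7%, against 36.2%). Counts by histone type given below are to be read beside these shares of all tested genes. Each number holds 1 SIX2 and 1 control library, so the spread behind these tests is that between 2 libraries of different virus labels, and nothing in the labels says that they were separate cultures. The replicate-number comparison was chosen with the split of the libraries already known. DESeq2 called 10 of the same 14, 9 higher and 1 lower, where it called 37% of all tested genes, 19.1% higher and 17.9% lower. Calls of some genes were lost when a library was left out, as given by gene below.

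**Figure D3:**
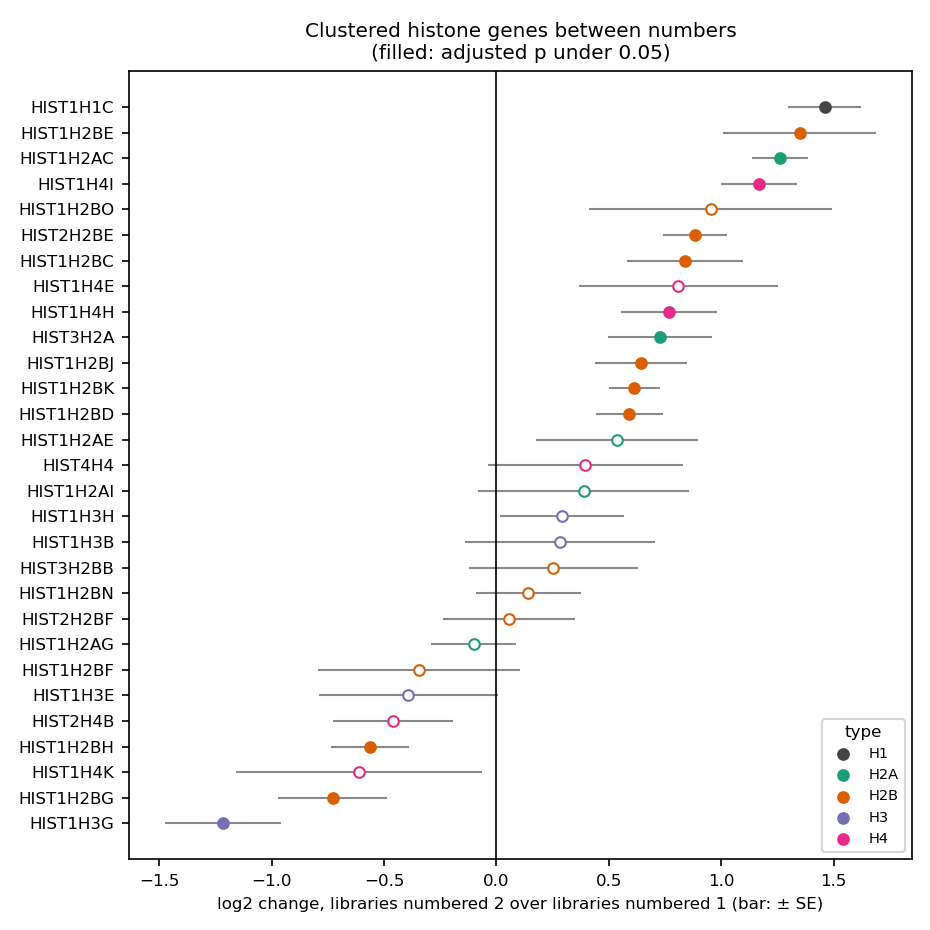
Each row is 1 tested clustered histone gene, ordered by its log2 change between libraries numbered 2 and libraries numbered 1 (n = 2 each); the bar is the standard error, the colour the histone type, and a filled point passed an adjusted p of 0.05. The 11 filled points right of 0 reach 1.46 (HIST1H1C), and the 3 filled points left of 0 reach -1.22 (HIST1H3G).

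Linker histone H1 was measured through 1 gene. HIST1H1C (ENSG00000187837, chromosome 6, 26055787 to 26056428, minus strand, GRCh38), which encodes the H1 subtype H1.2, had 81.5 CPM in SIX2 replicate 2 and 57.2 CPM in control replicate 2, against 23.4 CPM in SIX2 replicate 1 and 27.0 CPM in control replicate 1. The numbers did not overlap, and its log2 change of 1.46 was the largest among the 29 tested genes (SE 0.16). By edgeR the adjusted p was 1.16e-05. Number 2 averaged 69.4 ± 17.2 CPM and number 1 averaged 25.2 ± 2.56 CPM (SD, n = 2 each). The other H1 genes were near the limit of detection. HIST1H1E had 11 and 10 counts in SIX2 and control replicates 2 and 9 and 3 counts in SIX2 and control replicates 1. HIST1H1B had 1, 1 and 2 counts in SIX2 and control replicates 2 and SIX2 replicate 1, and 16 counts in control replicate 1. That 1 library held most counts of HIST1H1B, and neither gene was tested.

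Of the 5 tested H2A genes, 2 were higher in number 2 and 0 were lower. HIST1H2AC (ENSG00000180573, chromosome 6, 26124145 to 26139116, plus strand), an H2A gene known to give polyadenylated transcripts too, had 80.1 CPM in SIX2 replicate 2 and 67.2 CPM in control replicate 2, against 30.3 CPM in SIX2 replicate 1 and 31.1 CPM in control replicate 1. Both libraries numbered 2 lay above both numbered 1, and the log2 change was 1.26 (SE 0.12, adjusted p = 4.13e-06, edgeR's quasi-likelihood test). HIST3H2A, the H2A gene of the small HIST3 cluster, had 8.87 and 7.42 CPM in SIX2 and control replicates 2, against 5.52 and 4.27 CPM in SIX2 and control replicates 1 (log2 change 0.73, SE 0.23, adjusted p = 0.0215). This call was lost without control replicate 1, at an adjusted p of 0.195 by edgeR, and with DESeq2, at 0.0521. HIST1H2AG, second to HIST1H2AC by level among the H2A genes, had 8.87 and 8.01 CPM in number 2 and 9.23 and 8.88 CPM in number 1. These 4 values lay within a narrow band, and the test was not passed (log2 change -0.10, adjusted p = 0.695, edgeR's quasi-likelihood test).

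H2B genes were the best covered, with 13 of 18 tested, and moved both ways: 6 were higher in number 2 and 2 were lower. Of all tested genes 22.2% were higher and 21.6% lower. HIST1H2BK (ENSG00000197903, chromosome 6, 27146418 to 27146798, minus strand) had 73.0 CPM in SIX2 replicate 2 and 79.7 CPM in control replicate 2, against 47.3 CPM in SIX2 replicate 1 and 52.6 CPM in control replicate 1 (log2 change 0.61, SE 0.11, adjusted p = 0.000783, edgeR's quasi-likelihood test). HIST1H2BD (ENSG00000158373) had 33.2 and 27.8 CPM in SIX2 and control replicates 2, against 18.3 and 22.2 CPM in SIX2 and control replicates 1 (log2 change 0.59, SE 0.15, adjusted p = 0.00581). HIST2H2BE (ENSG00000184678), the H2B gene of the HIST2 cluster with the most counts, had 29.3 and 26.9 CPM in number 2, against 14.6 and 15.8 CPM in number 1 (log2 change 0.88, SE 0.14, adjusted p = 0.000237). In all of these both libraries of number 2 lay above both of number 1, as in 36.1% of all tested genes. HIST1H2BE, HIST1H2BC and HIST1H2BJ were also higher in number 2, with log2 changes of 1.35 (SE 0.34), 0.84 (SE 0.26) and 0.64 (SE 0.20). HIST1H2BE rested on few counts, at 3.49 and 3.53 CPM in number 2 against 1.15 and 1.60 CPM in number 1. It shares 30.5% of its 50-base windows with other genes, of which the antisense gene AL353759.1, which it overlaps, shares the most. Without SIX2 replicate 1 the calls of HIST1H2BC, HIST1H2BD, HIST1H2BE and HIST1H2BJ were lost, with adjusted p of 0.142, 0.101, 0.0763 and 0.234 by edgeR. That of HIST1H2BC was also lost without SIX2 replicate 2 (adjusted p = 0.0520), and that of HIST1H2BJ with DESeq2 (adjusted p = 0.0532).

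The 2 H2B genes that were lower in number 2 lie in the same subcluster of chromosome 6 as HIST1H2BC and HIST1H2BD. HIST1H2BH (ENSG00000275713, 26251651 to 26253710, plus strand) had 9.57 and 9.33 CPM in SIX2 and control replicates 2, against 13.0 and 14.96 CPM in SIX2 and control replicates 1. HIST1H2BG (ENSG00000273802, 26215159 to 26216692, minus strand) had 3.42 and 4.13 CPM in number 2, against 6.25 and 6.28 CPM in number 1. Neither gene's numbers overlapped, and both fell in number 2, with log2 changes of -0.56 for HIST1H2BH (SE 0.17, adjusted p = 0.0176) and -0.73 for HIST1H2BG (SE 0.24, adjusted p = 0.0270, edgeR's quasi-likelihood test). DESeq2 called neither, with adjusted p of 0.0534 for HIST1H2BH and 0.0854 for HIST1H2BG. Without control replicate 1 edgeR called neither, with adjusted p of 0.185 for HIST1H2BH and 0.117 for HIST1H2BG, and HIST1H3G alone was called lower in number 2. HIST1H2BG also missed the threshold without SIX2 replicate 1, at an adjusted p of 0.116.

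Of the 4 tested H3 genes, 1 was lower in number 2 and 0 were higher. HIST1H3G (ENSG00000273983, chromosome 6, 26269405 to 26271815, minus strand) had 2.47 CPM in SIX2 replicate 2 and 2.69 CPM in control replicate 2, against 5.95 CPM in SIX2 replicate 1 and 6.08 CPM in control replicate 1. The 2 libraries of each number lay close together, and the gene fell in number 2 (log2 change -1.22, SE 0.26, adjusted p = 0.00200, edgeR's quasi-likelihood test). HIST1H3H had 5.01 and 3.83 CPM in number 2 and 3.28 and 3.94 CPM in number 1, and HIST1H3B had 1.20 and 2.27 CPM in number 2 and 1.34 and 1.54 CPM in number 1. Both overlapped between numbers. The H3 sum of number 2 was thus low mainly through HIST1H3G, the H3 gene with the most counts.

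Of the 6 tested H4 genes, 2 were higher in number 2 and 0 were lower. HIST1H4I (ENSG00000276180, chromosome 6, 27138588 to 27139881, plus strand) had 48.7 CPM in SIX2 replicate 2 and 36.5 CPM in control replicate 2, against 21.6 CPM in SIX2 replicate 1 and 16.3 CPM in control replicate 1 (log2 change 1.17, SE 0.17, adjusted p = 0.000115, edgeR's quasi-likelihood test). HIST1H4H had 11.1 and 9.03 CPM in SIX2 and control replicates 2, against 5.22 and 6.61 CPM in SIX2 and control replicates 1 (log2 change 0.77, SE 0.22, adjusted p = 0.0110). Without SIX2 replicate 1 the adjusted p of HIST1H4H was 0.123 by edgeR. HIST2H4B, with 4.18 and 3.05 CPM in number 2 and 4.73 and 5.21 CPM in number 1, did not pass (adjusted p = 0.187 by edgeR), but did without SIX2 replicate 2 (adjusted p = 0.0441). It shares 97.2% of its 50-base windows with other genes, of which HIST2H4A shares the most, so its counts are uncertain. HIST4H4, the single gene of its cluster, had 1.20 and 2.63 CPM in number 2 and 1.46 and 1.47 CPM in number 1, and the numbers overlapped. All H4 genes encode the same protein or nearly so, so that differences between them are differences between gene copies. The 7 tested genes of any type not described so far (HIST1H2AE, HIST1H2AI, HIST1H2BF, HIST1H2BN, HIST1H3E, HIST1H4E and HIST1H4K) did not pass, with log2 changes between -0.61 for HIST1H4K and 0.81 for HIST1H4E.

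Along chromosome 6 the HIST1 genes form 3 groups separated by more than 500000 bases. The first, from 25726132 to 26285638, holds 34 genes and summed to 241 and 198 CPM in SIX2 and control replicates 2, against 118 and 128 CPM in SIX2 and control replicates 1. The second, from 27125897 to 27147515, holds 5 genes, among them HIST1H2BJ, HIST1H2AG, HIST1H4I and HIST1H2BK, and summed to 141 and 136 CPM in number 2, against 84.1 and 85.5 CPM in number 1. The third, from 27807444 to 27893843, holds 16 genes but only 16.7 and 14.4 CPM in number 2, with 12.4 and 15.9 CPM in number 1, and its numbers overlapped. Neighbours did not always pass the threshold together, and no test compared one neighbour with another. HIST1H2AC and HIST1H2BC, which start from the same stretch between them, were both higher in number 2. HIST1H2AG, which lies between HIST1H2BJ and HIST1H4I, did not pass, while both of these did. HIST3H2A was higher in number 2. Its neighbour HIST3H2BB, at 1.77 and 2.63 CPM in number 2 and 1.52 and 2.20 CPM in number 1, overlapped between numbers. Its log2 change of 0.25 had the same sign but did not pass.

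The level of a gene went with the 3′ end of its GENCODE 29 model. In 29 genes the model carries a 3′ untranslated region of more than 100 bases, and 23 of these had a mean of at least 1 CPM. Of 7 genes with a shorter 3′ untranslated region 0 reached 1 CPM. Of 35 genes with none in the model 4 did, namely HIST1H2BK, HIST1H1C, HIST1H3B and HIST1H2BO. Per kilobase, the medians were 1.78 CPM per kilobase in the first class, 0.647 in the second and 0.235 in the third, which also held all 11 genes with 0 counts. A polyadenylation signal, AATAAA or ATTAAA, stood in the last 50 bases of 23 models. The stem-loop was followed by more than 100 further bases in 19 models, HIST1H2AC and HIST2H2BE among them. Longer models offer reads more positions, a short model leaves reads past its end uncounted, and the annotation was built from observed transcripts, so these levels and the classes are not independent. Among the 23 tested genes of the first class 9 were higher and 3 lower in number 2, among the 5 of the third class 2 were higher and 0 lower, and the 1 of the second class did not pass. Of all tested genes 22.2% were higher and 21.6% lower.

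**Figure D4:**
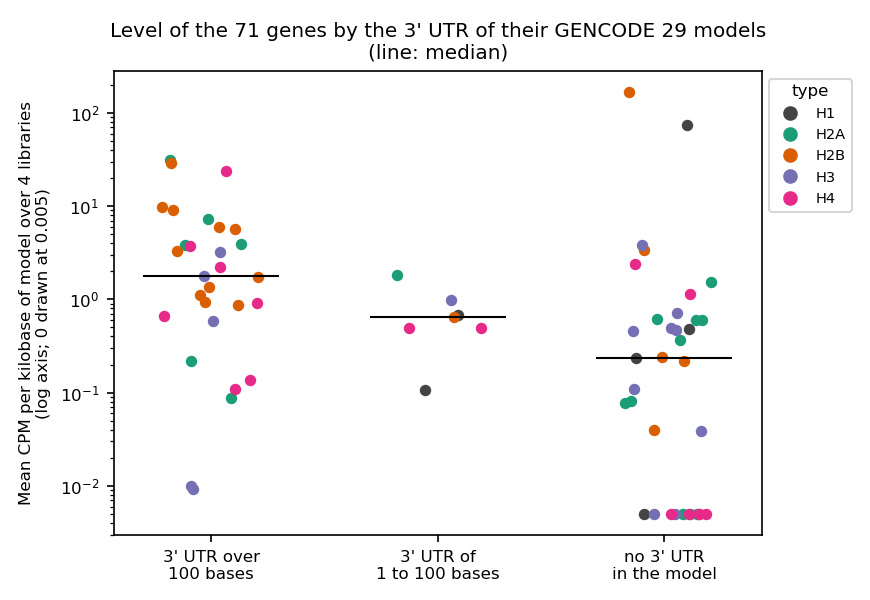
Each point is 1 of the 71 clustered histone genes, placed by the 3′ untranslated region (UTR) of its GENCODE 29 model and, on a log axis, by its mean CPM per kilobase of model over the 4 libraries (0 drawn at 0.005); colours are histone types and the line is the class median. The medians are 1.78, 0.647 and 0.235 CPM per kilobase from left to right, and HIST1H2BK (166) and HIST1H1C (73.7) stand far above the others in the right-hand class.

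A list of 8 clustered histone genes known to give polyadenylated transcripts held 65.5% of the counts of the 71 genes, and its tested members all moved one way. They are HIST1H1C, HIST1H2AC, HIST1H2BC, HIST1H2BD, HIST1H2BJ, HIST1H2BK, HIST2H2BE and HIST2H2AA3, and the list was written with earlier results of these data known. They summed to 314 and 275 CPM in SIX2 and control replicates 2, against 143 and 160 CPM in SIX2 and control replicates 1, a fold of 1.94 between numbers. All 7 that were tested were higher in number 2, with a median log2 change of 0.84, where 22.2% of all tested genes were higher and 21.6% lower. The list was not independent of that direction. HIST2H2AA3 had 1 count in each of SIX2 replicate 2, control replicate 2 and control replicate 1 and 0 in SIX2 replicate 1, and it shares its sequence with HIST2H2AA4. The 63 genes outside the list summed to 135 and 125 CPM in SIX2 and control replicates 2, against 106 and 107 CPM in SIX2 and control replicates 1.

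In the comparison of the SIX2 label with the control label, 0 of the 29 tested genes passed the threshold by edgeR's quasi-likelihood test, as did 0% of all 16343 tested genes. At an unadjusted p under 0.05 the count was also 0 of 29, and DESeq2 called 0 with 0 under 0.05. The median log2 change of the 29 was -0.02. In 4 genes the SIX2 library lay above its control in both numbers (13.8%, against 22.9% of all tested genes), and in 12 it lay below in both (41.4%, against 21.7%). With the number as a term in the edgeR fit 0 of 29 passed either, but 3 had an unadjusted p under 0.05 (3.07% of all tested genes did), namely HIST1H4I at 0.00861, HIST1H2BO at 0.0171 and HIST2H2BF at 0.0346, with log2 changes of 0.41, -1.27 and -0.58. The groups contain both numbers, so the large difference between numbers is part of the spread against which the label was tested. SIX2 itself did not differ with the label, so these values compare labels and not measured SIX2 levels.

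The 4 genes with the smallest unadjusted p in that comparison were lower in the libraries labelled SIX2 overexpression on average, and none passed. HIST1H2BO, an H2B gene at the end of the HIST1 cluster, had 1.01 and 0.486 CPM in SIX2 replicates 2 and 1, against 2.33 and 1.27 CPM in control replicates 2 and 1 (log2 change -1.26, SE 0.68, adjusted p = 1.00). Its labels did not overlap, on few counts. HIST2H2BF had 3.87 and 4.98 CPM in SIX2 replicates 2 and 1, against 7.36 and 5.88 CPM in control replicates 2 and 1 (log2 change -0.58, SE 0.38, adjusted p = 1.00). HIST3H2BB and HIST1H3B had log2 changes of -0.55 (SE 0.45) and -0.58 (SE 0.51). In these genes too, both SIX2 libraries lay below both controls (n = 2 each). The 4 were picked by their p between these same libraries, so the lack of overlap is no separate evidence. HIST1H4K and HIST4H4 had the same order, and the share over all tested genes was not counted.

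Within a number there is 1 library per label and no replicate check, so ratios carry only an interval for counting error. HIST1H4I was 1.33 times its control in number 2 (95% interval 1.20 to 1.49) and 1.33 times in number 1 (1.12 to 1.57), with intervals above 1 in both. HIST1H2BK was 0.916 times its control in number 2 (0.846 to 0.992) and 0.900 times in number 1 (0.814 to 0.995), and HIST1H2BO 0.435 (0.227 to 0.796) and 0.383 (0.145 to 0.915). HIST1H2AC was 1.19 times its control in number 2 (1.10 to 1.29) and 0.977 times in number 1 (0.860 to 1.11). HIST1H1C went opposite ways, at 1.42 times its control in number 2 (1.31 to 1.55) and 0.866 times in number 1 (0.752 to 0.998). PCR copies are counted as separate reads here, so the true intervals may be wider.

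**Figure D5:**
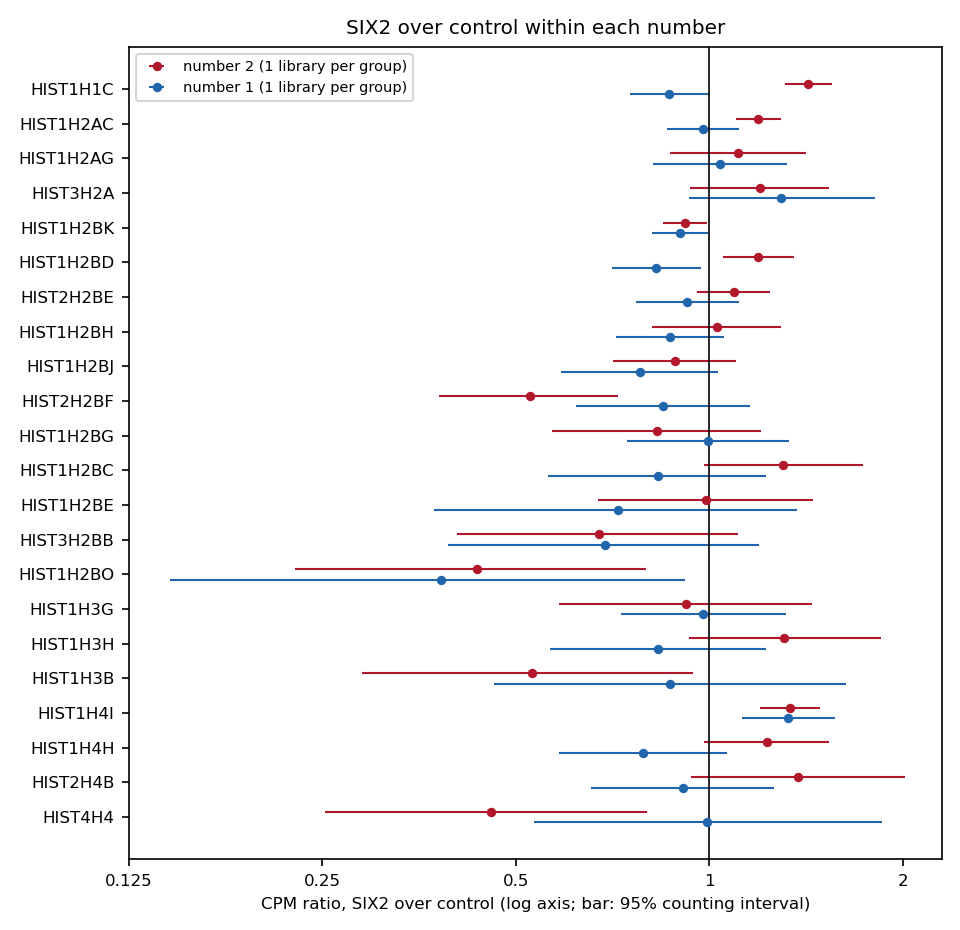
Each row is a named clustered histone gene that was tested, and each point is the CPM ratio of the SIX2 library to the control library of the same number on a log axis, number 2 in red above number 1 in blue, with the 95% counting interval. HIST1H4I lies at 1.33 in both numbers, HIST1H2BO at 0.435 and 0.383, and HIST1H1C on opposite sides of 1.

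Genes that act with the clustered histones were also counted in the comparison of numbers, from lists written with earlier results known. They are to be read beside all tested genes, of which 22.2% were higher and 21.6% lower at a median log2 change of 0.0061. Of 44 tested S-phase and replication genes, 23 were higher and 1 lower in number 2, with a median log2 change of 0.35. The ribonucleotide reductase subunit RRM1 had 532 and 508 CPM in SIX2 and control replicates 2, against 380 and 353 CPM in SIX2 and control replicates 1 (log2 change 0.51, SE 0.11, adjusted p = 0.00176, edgeR's quasi-likelihood test). Among the helicase subunits MCM4 had a log2 change of 0.74 and MCM3 of 0.59, both higher, and MCM7 of 0.19, which did not pass. Of 17 histone chaperones and their partners 8 were higher and 1 lower, with a median of 0.27. RBBP7, a histone-binding subunit of several complexes, had a log2 change of 1.20, and NAP1L1, which carries H2A and H2B, of 0.41. SSRP1 and SUPT16H, the subunits of the chaperone FACT, had -0.22 and 0.27 and did not pass.

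Replacement histones, which are also made outside S phase and from polyadenylated mRNAs, included 6 higher and 0 lower among 10 tested, with a median log2 change of 0.36. H1F0, the replacement linker histone, had 505 and 353 CPM in SIX2 and control replicates 2, against 119 CPM in both libraries of number 1 (log2 change 1.85, SE 0.15, adjusted p = 6.84e-07, edgeR's quasi-likelihood test). It moved in the same direction as HIST1H1C, the clustered linker histone. H3F3B and H3F3A, which encode the H3.3 replacement histone, had log2 changes of 0.21 and 0.20, and H2AFY, which encodes macroH2A, of 0.08. None of these passed. Of 20 genes of histone mRNA processing or histone gene transcription, 7 were higher and 2 lower, with a median of 0.09. SRRT and UPF1, at 0.07 and -0.02, did not pass, whereas CPSF2, a subunit of the cleavage complexes, was higher by 0.62 and the transcription factor YY1 by 0.40. The stem-loop binding protein gene SLBP was higher by 0.61. The 2 lower genes were POU2F1 at -0.81 and ZNF473 at -0.40.

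Most RNAs known to have no poly(A) tail had few or no counts. Of 29 such small and structural RNAs 15 had 0 counts in all libraries and 3 were tested, of which RN7SL2, the signal recognition particle RNA, was higher in number 2 (log2 change 1.57, SE 0.38, adjusted p = 0.00429, edgeR's quasi-likelihood test). RN7SL2 was well above the others, at 16.3 and 43.5 CPM in SIX2 and control replicates 2, against 6.68 and 13.6 CPM in SIX2 and control replicates 1. The 29 summed to 21.4 and 49.5 CPM in SIX2 and control replicates 2, against 11.9 and 17.8 CPM in SIX2 and control replicates 1. RN7SL2 has near-identical copies, and its counts are uncertain. This sum moves with the number as the histone sum does, and its part in the histone differences was not tested. Between the virus labels, 0 members of any of these lists passed the threshold.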

How the data were processed

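Each of the 4 deposited files held whole-number counts per Ensembl gene for 1 library, not normalized, per the file headers and values. Aligner, counter and strandedness: not given in the sources used here. Per the submitters' processing notes the build was the mouse build mm9, yet all 58735 gene identifiers are in the human GENCODE release 29, and the 71 genes have the same start, end and strand there, so coordinates are on GRCh38. The notes of the design speak of 2 repeats and the treatment protocol of 3. No label calls the libraries separate cultures, and the p-values then reflect no more than the spread between these 4, which may be technical.

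In R 4.3.3, edgeR 4.0.16 removed low counts (filterByExpr, minimum count 10), which left 16343 genes, and scaled libraries by TMM. Levels are CPM on the scaled library size (per 1000000). Labels and numbers were each compared by edgeR's quasi-likelihood test with Benjamini-Hochberg adjustment over all tested genes (threshold 0.05), and standard errors were taken from the F statistic. The code was tested on simulated data. Intervals of ratios are exact binomial at 95% and cover counting error only. DESeq2 1.42.0, its size factors, no filter, an added term and each library left out were the alternatives.

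The genes, the lists and the comparison of numbers were chosen with earlier results of these data known. Named genes are the 3 most abundant of each type, up to 6 with the largest called change in each direction between numbers, the 4 with the smallest p between labels, the tested HIST3 and HIST4 genes and the 8 genes of the polyadenylated list. HIST1H1A, HIST1H4A, HIST1H4L, HIST2H4A, CDH1, CDH17, TFF1, the genes named for shared windows and 0 counts, and the genes named only with a stem-loop or as the remaining tested ones were added after values were seen. From other lists up to 4 members of highest level are named. EPCAM, KRT19, TFF2, GKN1, SLBP, POU2F1 and ZNF473 were also added after values were seen. Stem-loops, end signals and shared windows were read from GENCODE 29 transcripts and promoters from RefSeq tables. Without a known strand setting, overlapping antisense genes cannot be told apart. Of the tested genes, 5 overlap another gene (HIST1H2BD, HIST1H2BE, HIST1H2BN, HIST2H2BF and HIST2H4B).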

Additional observations from a re-analysis of the deposited data

Results flagged for a closer look

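HIST1H1C went opposite ways with the virus label in the 2 numbers. The SIX2 library was 1.42 times its control in number 2 (95% counting interval 1.31 to 1.55) and 0.866 times in number 1 (0.752 to 0.998). HIST1H2BD had ratios of 1.19 (1.05 to 1.35) in number 2 and 0.827 (0.705 to 0.969) in number 1. Each ratio compares 1 library with 1 library, so the difference between numbers was not tested, and the intervals hold no variation between cultures.

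Outside the protein-coding genes, 2 rows of the HIST2 cluster annotated as transcribed unprocessed pseudogenes had counts like those of the tested genes. HIST2H2BC (chromosome 1, 149844498 to 149850937) had 1105 counts over the 4 libraries, at 13.4 and 16.3 CPM in SIX2 and control replicates 2 and 21.0 and 18.4 CPM in SIX2 and control replicates 1 (log2 change between numbers -0.41, SE 0.16, adjusted p = 0.0526, edgeR's quasi-likelihood test). HIST2H2BD (chromosome 1, 149842875 to 149846486) had 380 counts, at 5.51 and 5.92 CPM in number 2 and 5.95 and 6.41 CPM in number 1, and did not pass. Both have close relatives among the H2B genes, and how reads were shared between them was not tested.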

How the results depend on the processing

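Between numbers, the calls among the 29 tested genes ranged from 9 to 16 when 1 library was left out (6 to 12 higher and 1 to 4 lower), with a median log2 change from 0.36 to 0.53. Such fits leave 1 library on a side, assumed to vary like the others, and unbalance the labels. With no filter on low counts 5 clustered histone genes were called lower, a count not limited to the 29, and with DESeq2 1, against 3. The causes were not tested, beyond the larger number of genes tested without a filter. Size factors or a term for the virus label left the counts of genes called, called higher and called lower as they were. Without the 8 genes listed as polyadenylated the summed level was 135 and 125 CPM in SIX2 and control replicates 2 and 106 and 107 CPM in SIX2 and control replicates 1. Over the named tested genes and all alternatives, the change between numbers kept its sign and its side of the threshold 154 times, lost its call 14 times, gained one 2 times and turned sign 6 times. The sign turned when 1 library was left out in HIST1H3B (-0.23 to 0.66), HIST2H2BF (-0.47 to 0.44), HIST3H2BB (-0.045 to 0.53) and HIST4H4 (-0.26 to 0.84), none of which was called.

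Between labels no alternative called any of the 29, and the median ranged from -0.41 to 0.08 with 1 library left out. The sign turned 30 times, always with 1 library left out: HIST1H1C (-0.85 to 0.97), HIST1H2AC (-0.70 to 0.84), HIST1H2BC (-0.54 to 0.61), HIST1H2BD (-0.45 to 0.40), HIST1H2BE (-1.15 to 0.54), HIST1H2BG (-0.61 to 0.26), HIST1H2BH (-0.40 to 0.28), HIST1H2BJ (-0.67 to 0.070), HIST1H2BK (-0.49 to 0.20), HIST1H3G (-0.83 to 0.65), HIST1H3H (-0.25 to 0.36), HIST1H4H (-0.58 to 0.50), HIST1H4I (-0.29 to 1.12), HIST2H2BE (-0.55 to 0.48), HIST2H4B (-0.22 to 0.55) and HIST3H2A (-0.084 to 0.76). With the title number as a replicate block, 0 of the 29 genes and 8 of 16343 (0.049%) were called, 3 of the 29 had an unadjusted p under 0.05, and the median was 0.0012. Deviations from the group means correlated at 0.872 between same-numbered libraries, but with 2 pairs and no label that gives the number a meaning the pairing is a hint from the data. Few counts limit the 42 genes that were not tested, and depth and reads shared between copies were not told apart there.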
